A study of Mus musculus with 2 samples.

Results

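Potassium channel genes were compared between kidneys of male Iah1-KO mice, which lack Iah1 throughout the body, and of male Iah1-WT mice. The genes were all those with exactly 1 platform symbol that starts with Kcn and continues with the letters of a channel subfamily; the interacting proteins named Kcnip and Kcnrg were left out. The rule gave 85 of the 22180 genes with 1 symbol, of which 83 encode a channel subunit and 2, Kcnq1ot1 and Kcnd3os, are non-coding transcripts. Mice of both genotypes ate chow to 6 weeks of age and then a high-fat diet for 12 weeks, and food was withdrawn for 4 hours before they were killed. Each genotype was measured on 1 Affymetrix array that carried kidney RNA pooled from 3 mice. There was therefore no replicate array, no test between genotypes and no estimate of the spread between mice, and every difference below is one between 2 pools. The labels state neither the deleted part of Iah1 nor the strain background.

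Potassium channels let potassium ions cross membranes down their electrochemical gradient and so set the voltage that drives other transport. In the kidney, channels of the basolateral membrane recycle the potassium that the sodium pump brings in, and apical channels of the thick ascending limb and the collecting duct return potassium to the tubular fluid. Pore-forming subunits fall into inward rectifiers (Kcnj), two-pore-domain leak channels (Kcnk), voltage-gated channels (Kcna to Kcnd, Kcnh and Kcnq, with the silent modifiers Kcnf, Kcng, Kcns and Kcnv) and channels opened by calcium or sodium (Kcnm, Kcnn, Kcnt) or by alkaline pH (Kcnu). Kcnab, Kcne and Kcnmb genes encode accessory subunits.

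Values are log2 RMA values per probe set, and a difference is the Iah1-KO value minus the Iah1-WT value. Because probes bind with different strength, a higher value for one gene than for another does not show more transcript. The floor, the array medians and the medians over sets of genes share this limit. A gene counted as at or above the expression floor when its higher value was at least 6. As a yardstick, each difference was divided by a local robust SD, the scaled median absolute deviation of the differences of the 500 genes nearest in mean value, which describes the spread over genes and not over mice. Iah1 itself had 3.60 in the Iah1-KO pool and 9.09 in the Iah1-WT pool. The Iah1-KO value lies below that array's overall median, 4.03. The pools correlated across the 7671 genes at or above the floor with Pearson's r = 0.990; genes are not independent replicates. In whole-kidney RNA, fewer cells of a type and less RNA per cell cannot be told apart.

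Most potassium channel genes gave a low signal in both pools. The floor was reached by 10 of the 85 (11.8%), against 34.6% of all genes, and 45 lay below the overall median of both arrays and are not shown to be above background. That median is over all 41345 probe sets, and the share of all genes below it on both arrays was not counted. The median value of the 85 was 3.80 in the Iah1-KO pool and 3.89 in the Iah1-WT pool, against 4.64 and 4.67 over all genes. The 10 were the inward rectifiers Kcnj1, Kcnj8, Kcnj10, Kcnj15 and Kcnj16, the two-pore-domain channels Kcnk1 and Kcnk5, the voltage-gated channels Kcna4 and Kcnq1, and the sodium-activated channel Kcnt1. Of these, 5 were higher and 5 lower in the Iah1-KO pool, with a median difference of -0.03; over all genes at or above the floor the median was 0.01 and 52.4% were higher. None of the 10 reached a 1.5-fold difference in either direction, which 0.43% of the genes at or above the floor did (0.222% higher and 0.209% lower). Differences beyond 2 local robust SDs were seen for 3 of the 10, with Kcnk5 and Kcnj16 higher and Kcnj10 lower, against 7.12% of the genes at or above the floor (4.09% higher and 3.02% lower).

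**Figure D1:**
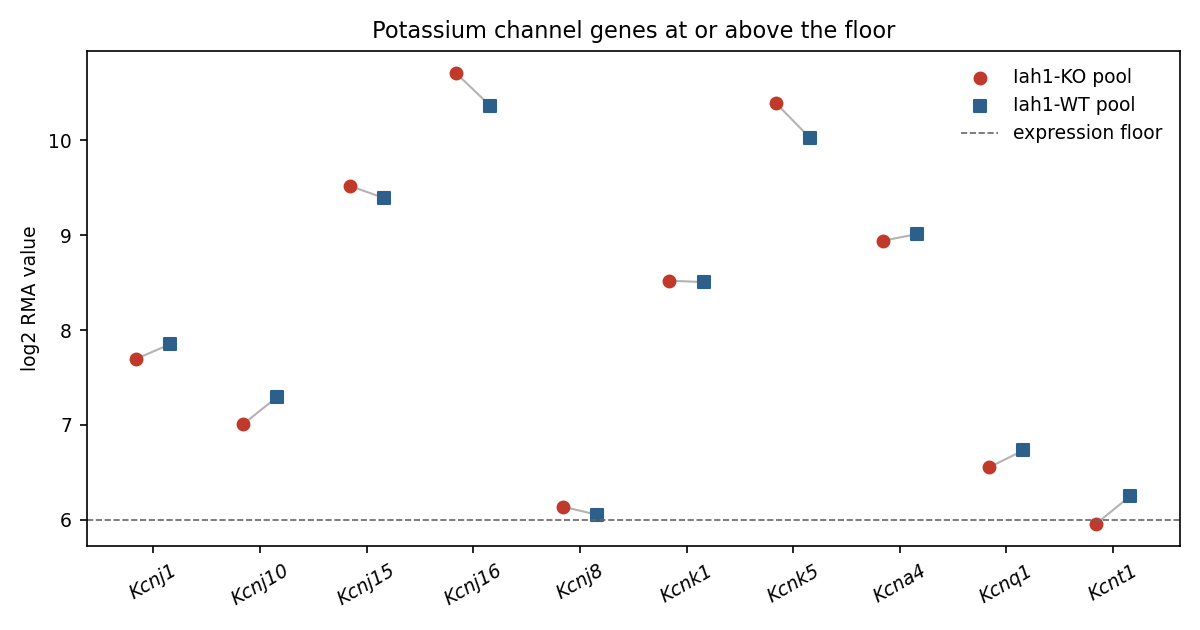
Log2 RMA values of the 10 potassium channel genes at or above the expression floor (dashed line, 6), with the Iah1-KO pool as red circles left of the Iah1-WT pool as blue squares; each point is 1 array. Kcnj16 and Kcnk5 are higher in the Iah1-KO pool by 0.34 and 0.37, while Kcnj10 and Kcnt1 both differ by -0.29.

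Upstream sequences are shown for the 3 members at or above the floor that were beyond 2 local robust SDs. They are the 250 bases before the RefSeq gene start (GRCm38.p6), 5′ to 3′ on the strand of the gene. Capitals mark matches, on either strand, to GTTAAT (the core bound by the tubular factor HNF1), TTCNNNGAA (the palindrome bound by STAT factors), TATAAA and CCAAT.
Kcnj16 (chr11:110967783-110968032, plus strand): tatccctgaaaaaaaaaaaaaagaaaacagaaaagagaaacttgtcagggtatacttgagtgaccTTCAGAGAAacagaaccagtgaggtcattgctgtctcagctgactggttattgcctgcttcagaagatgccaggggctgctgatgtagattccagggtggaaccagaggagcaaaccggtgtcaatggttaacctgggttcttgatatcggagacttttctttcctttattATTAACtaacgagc
Kcnj10 (chr1:172340960-172341209, plus strand): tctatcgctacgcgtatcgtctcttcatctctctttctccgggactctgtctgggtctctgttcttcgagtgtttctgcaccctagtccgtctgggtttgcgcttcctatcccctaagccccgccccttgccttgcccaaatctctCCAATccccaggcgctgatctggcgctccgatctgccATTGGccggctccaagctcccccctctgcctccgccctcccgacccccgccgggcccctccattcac
Kcnk5 (chr14:20181783-20182032, minus strand): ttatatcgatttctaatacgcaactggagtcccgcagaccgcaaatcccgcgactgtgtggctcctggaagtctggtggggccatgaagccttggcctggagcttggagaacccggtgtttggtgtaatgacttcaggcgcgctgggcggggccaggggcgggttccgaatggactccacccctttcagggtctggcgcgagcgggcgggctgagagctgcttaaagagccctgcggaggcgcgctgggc
The printed Kcnj16 window held 1 HNF1 core, 14 bases before the start and on the minus strand, and 1 TTCNNNGAA, 185 bases before it. Of the 32851 RefSeq windows of this length, 6.43% held GTTAAT and 7.02% held TTCNNNGAA. Kcnj10 held 2 CCAAT matches, 104 and 67 bases before the start, a motif found in 33.8% of windows, and Kcnk5 held none of the 4 motifs; TATAAA, in 12.4% of all windows, was in none of the 3 printed. RefSeq lists 4 starts for Kcnj16, of which the first is printed, and the pools' RNA cannot say which was used. In the windows of its other starts there was no GTTAAT and no TTCNNNGAA, but 1 held TATAAA, 133 bases before the start, and 1 held CCAAT, 60 bases before. The shares are per window, and a gene with 4 windows has more chances of a match. The matches did not overlap each other. The base composition also differed, with 42.8% G and C for the printed Kcnj16 window, against 62% for Kcnj10 and 62.8% for Kcnk5 and a median of 52.4% over all windows. Members at or above the floor but within 2 local robust SDs spread as widely. Their windows ran from 44.4% (Kcnk1) and 44.8% (Kcnj1) to 65.2% (Kcna4), with Kcnj8 at 49.2% and Kcnj15 at 53.2%. Among these, Kcnj1 held 1 CCAAT match and the others none of the 4 motifs. These matches are descriptions of letters and not of binding, and their part in the differences between the pools was not tested.

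Among the inward rectifiers, Kcnj16 had the largest difference of those at or above the floor. Kcnj16 (probe set 17257928) forms heteromeric channels with the products of Kcnj10 and Kcnj15 and makes them sensitive to intracellular pH. It had 10.71 in the Iah1-KO pool and 10.36 in the Iah1-WT pool. The difference of 0.34, a 1.27-fold higher signal, was 3.40 times the local robust SD of 0.10 and ranked 330 of 7671 by size.

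Kcnj10 (probe set 17219536), the basolateral channel of the distal convoluted tubule and the usual partner of Kcnj16 there, had 7.01 in the Iah1-KO pool and 7.29 in the Iah1-WT pool. Its difference of -0.29 was -2.21 times the local robust SD, 0.13 at this signal, and ranked 544 of 7671. The partners Kcnj16 and Kcnj10 thus differed in opposite directions between the pools. Kcnj15 (probe set 17327450), the partner of Kcnj16 in the proximal tubule, had 9.52 and 9.39 in the Iah1-KO and Iah1-WT pools, a difference of 0.13 or 1.37 local robust SDs.

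Markers of the segments that carry these channels were read alongside. All 8 proximal tubule markers were at or above the floor, at 10.37 to 12.67 in the Iah1-KO pool and 10.34 to 12.62 in the Iah1-WT pool. Their median difference was 0.04, with 5 higher and 3 lower, and the furthest was Slc22a8, an organic anion transporter, at 0.23. That is 2.33 times its local robust SD, and Slc22a8 was the 1 marker of the 8 beyond 2, in the same direction as Kcnj16 and Kcnk5. Of 4 distal convoluted tubule markers, 3 reached the floor, with a median of 0.07; Slc12a3, the cotransporter that defines this segment, differed by 0.08, and Calb1 by -0.14. Parvalbumin (Pvalb) was below the floor at 5.14 and 5.47 in the Iah1-KO and Iah1-WT pools. The part of these cell types in the channel differences was not tested.

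Kcnj1 (probe set 17515813) encodes the apical channel of the thick ascending limb and collecting duct through which potassium is secreted. It had 7.70 in the Iah1-KO pool and 7.85 in the Iah1-WT pool, a difference of -0.16 that was within 2 local robust SDs (-1.26). Of 5 thick ascending limb markers, 4 reached the floor and all 4 had lower values in Iah1-KO (median difference -0.08), with Cldn10 at -0.24 (-2.37 local robust SDs) and Slc12a1 at -0.12. The 6 principal cell markers were all at or above the floor, 3 higher and 3 lower, with a median of 0.06 and Aqp2 furthest at 0.49 (3.04 local robust SDs). Their part in the Kcnj1 value was not tested.

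Kcnj8 (probe set 17472530) encodes the pore of the ATP-sensitive channel of vascular smooth muscle, which assembles with the sulfonylurea receptor encoded by Abcc9. Kcnj8 had 6.14 in the Iah1-KO pool and 6.05 in the Iah1-WT pool, and Abcc9, its next protein-coding neighbour in the genome, had 6.80 and 6.77. Both genes of this pair reached the floor and both differed by less than 1 local robust SD. The other such pair is the pancreatic and neuronal form, Kcnj11 and its neighbour Abcc8, which lay below the floor at 4.26 and 4.17 in the Iah1-KO pool and 4.00 and 4.15 in the Iah1-WT pool. Of 7 smooth muscle and pericyte markers, 5 reached the floor, with a median difference of -0.02.

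The 9 other Kcnj genes were below the floor, among them Kcnj14 at 4.75 in the Iah1-KO pool and 4.68 in the Iah1-WT pool. Over all 14 Kcnj genes, 7 were higher and 7 lower, and the differences ran from -0.45 (Kcnj12) to 0.54 (Kcnj5). Kcnj5, a subunit of the G protein-gated channels of heart and adrenal cortex, had 3.73 in the Iah1-KO pool and 3.19 in the Iah1-WT pool. Both values lie below the array medians, so this difference rests on signals not shown to be above background.

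Kcnk5 had the largest difference of the two-pore-domain channels at or above the floor. Kcnk5 (probe set 17303722) encodes an alkali-activated leak channel of the proximal tubule that takes part in bicarbonate reabsorption. It had 10.39 in the Iah1-KO pool and 10.02 in the Iah1-WT pool. The difference of 0.37, a 1.29-fold higher signal, was 3.63 times the local robust SD of 0.10 and ranked 269 of 7671. Kcnk5 and Kcnj16 were the 2 members beyond 3 local robust SDs, a size seen in 1.71% of the genes at or above the floor (0.939% when only higher ones are counted).

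Kcnk1 (probe set 17506917), a weakly rectifying channel of tubules, had 8.52 in the Iah1-KO pool and 8.50 in the Iah1-WT pool, a difference of 0.02. Its relative Kcnk6 lay just under the floor, at 5.90 and 5.76 in the Iah1-KO and Iah1-WT pools. The 13 Kcnk genes had a median difference of -0.06, with 5 higher and 8 lower (49.3% of all genes were higher). They ran from -0.53 (Kcnk10) to 0.52 (Kcnk9), both of them signals below the array medians.

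Voltage-gated channels mostly lay at low signal. Kcnq1 (probe set 17485320), a pore subunit that in the proximal tubule helps hold the membrane voltage during sodium-coupled uptake, had 6.56 in the Iah1-KO pool and 6.73 in the Iah1-WT pool. The difference of -0.18 was within 2 local robust SDs (-1.03). Its accessory subunit Kcne1, which slows the opening of the Kcnq1 channel, had 5.69 in the Iah1-KO pool and 5.19 in the Iah1-WT pool. Kcne1 stayed below the floor, and its difference of 0.51 (1.42-fold) was 2.42 times the local robust SD of 0.21. Kcnq5 had 4.17 and 4.13 in the Iah1-KO and Iah1-WT pools.

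Kcna4, a rapidly inactivating channel best known from brain and heart, had 8.94 in the Iah1-KO pool and 9.01 in the Iah1-WT pool in its brighter probe set (17374053). Its other probe set (17374047) had 2.33 and 2.45, below the array medians. The difference was small in both, at -0.07 and -0.11. The labels do not say which of the probe sets measures the full transcript, so the presence of Kcna4 at or above the floor is uncertain. All 7 neuronal markers lay below the floor in both pools, and 5 of them below both array medians. All 6 markers of cardiac or skeletal muscle were below the floor as well. Which cells gave the Kcna4 signal was not tested.

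**Figure D2:**
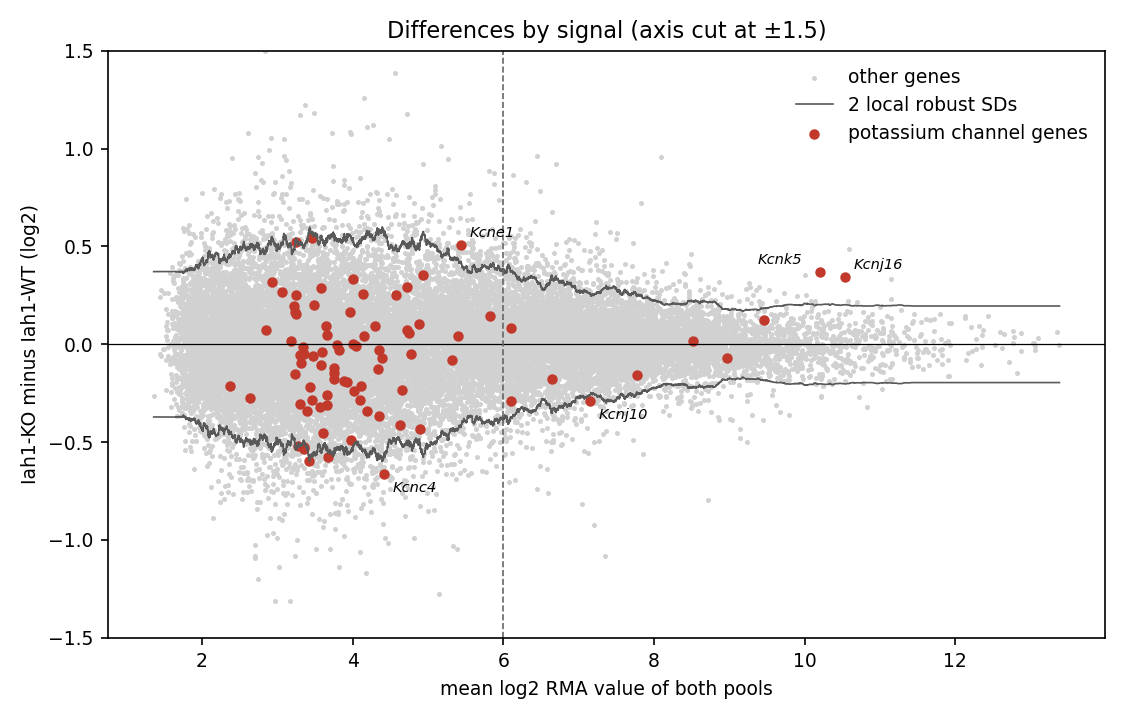
Difference between the Iah1-KO and Iah1-WT pools (log2) against the mean log2 RMA value of both pools, with potassium channel genes in red, other genes in grey, 2 local robust SDs as dark lines and a mean of 6 as a dashed line; 5 genes beyond 1.5 in size are not drawn. Kcnk5 and Kcnj16 lie above the band at high signal, Kcnj10 just below it, and most channel genes lie inside it at the left.

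The other 7 Kcna genes lay below the floor, and the subfamily ran from -0.52 (Kcna10) to 0.20 (Kcna1). Kcna6 had 4.54 in the Iah1-KO pool and 4.77 in the Iah1-WT pool. Its dimmer probe set had 3.37 and 4.18, a difference of -0.81 against -0.23 in the brighter one. The 3 Kcnc genes, of fast-firing neurons, held the largest difference of all 85, Kcnc4 at 4.09 in the Iah1-KO pool and 4.75 in the Iah1-WT pool. That difference of -0.66 (1.58-fold lower) was -2.35 times the local robust SD. Kcnd3, a pore of transient outward current in heart and brain, had 4.78 and 4.72 in the Iah1-KO and Iah1-WT pools.

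Of the 8 Kcnh genes, all below the floor, 5 were lower in the Iah1-KO pool, with a median difference of -0.23. Over all genes below the floor 52% were lower. Apart from Kcnh2 the Kcnh genes lay below both array medians, so this median rests on signals not shown to be above background. Kcnh1 had 3.11 in the Iah1-KO pool and 3.71 in the Iah1-WT pool, a difference of -0.60 (1.51-fold lower) between values under the array medians. Kcnh2, the pore of the cardiac repolarizing current, had 4.34 and 4.25 in the Iah1-KO and Iah1-WT pools. Kcnb2 had 3.08 and 3.62.

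The silent modifiers form no channel alone but alter Kcnb channels, and all 10 of them lay below the floor. Kcnf1 had 3.38 in the Iah1-KO pool and 3.96 in the Iah1-WT pool, a difference of -0.58. Kcng1 had 4.93 and 4.83, Kcns3 had 5.12 and 4.76, and Kcnv1 had 3.80 and 3.83 in the Iah1-KO and Iah1-WT pools. Kcns genes had a median difference of 0.29 over 3 genes and Kcng genes one of -0.07 over 4, against -0.01 over all genes below the floor. The Kcns median is the value of Kcns1, which lay below both array medians.

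Among channels opened by ions, Kcnt1 (probe set 17368212), a sodium-activated channel best known from neurons, had 5.96 in the Iah1-KO pool and 6.25 in the Iah1-WT pool. It counted as at or above the floor through the Iah1-WT value alone, and its difference of -0.29 was -1.56 times the local robust SD. Its relative Kcnt2 had 4.42 and 4.83 in the Iah1-KO and Iah1-WT pools.

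Kcnma1, the large-conductance calcium-activated channel that secretes potassium at high tubular flow, had 4.86 in the Iah1-KO pool and 4.57 in the Iah1-WT pool. Its other probe set had 2.80 and 2.91, with a difference of the opposite sign (-0.12, against 0.30). Kcnmb1, its accessory subunit in smooth muscle, had 4.74 and 4.79. Over the 5 Kcnm genes the median difference was -0.05. The small- and intermediate-conductance Kcnn genes, all below the floor, had 1 of 4 higher, against 47.7% of all genes below the floor. Kcnn1, the higher one, had 4.70 in the Iah1-KO pool and 4.45 in the Iah1-WT pool. Kcnu1, a sperm channel, had 2.26 and 2.48 and lay below the array medians in both.

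Accessory subunits lay below the floor throughout. The 5 Kcne genes ran from -0.43 (Kcne1l) to 0.51 (Kcne1). Kcnab2, a cytoplasmic beta subunit of Kcna channels, had 4.17 in the Iah1-KO pool and 4.53 in the Iah1-WT pool, and Kcnab1 had 4.17 and 3.84. The partners outside the symbol rule were described from a list of 18 genes, 17 of which matched. Only Abcc9 of these reached the floor, and 10 of the 17 lay below both array medians. Their median value was 3.50 in the Iah1-KO pool and 3.78 in the Iah1-WT pool, against 4.64 and 4.67 over all genes.

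**Figure D3:**
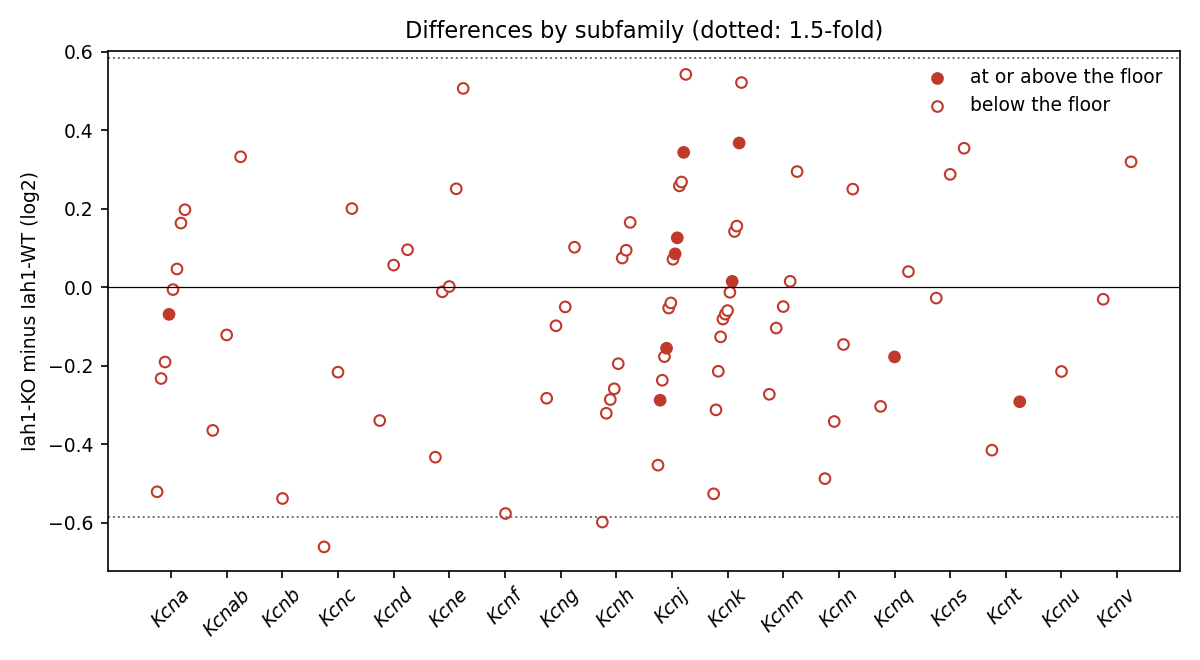
Difference between the Iah1-KO and Iah1-WT pools (log2) for each of the 83 subunit genes, by subfamily, with filled circles for genes at or above the expression floor and open circles for those below; dotted lines mark 1.5-fold. Kcnc4 and Kcnh1 are the 2 genes past the lower line, both open, and no gene passes the upper line.

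Over the 75 genes below the floor, 46 (61.3%) were lower in the Iah1-KO pool and 29 higher, with a median difference of -0.05. Over all genes below the floor 52% were lower and the median was -0.01. A 1.5-fold lower value was found in 2 of the 75 (2.67%), against 2.07% of all genes below the floor, and a 1.5-fold higher value in 0, against 1.41%. Beyond 2 local robust SDs, 6 were lower (8%), against 3.76%, and 1, Kcne1, was higher (1.33%), against 2.89%. The 6 were Kcnc4, Kcnh1, Kcnf1, Kcnk10, Kcnb2 and Kcna10, and 5 of them lay below the array medians in both pools, where Kcnc4 did not. With 1 array per genotype, differences among such dim signals have no check.

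The 2 non-coding members overlap a channel gene. Kcnq1ot1, the antisense transcript within Kcnq1 that silences neighbouring genes on the paternal chromosome, had 5.42 in the Iah1-KO pool and 5.38 in the Iah1-WT pool. Kcnd3os, which overlaps Kcnd3, had 3.16 and 3.30. The labels do not say how their probes separate them from the overlapping gene, so both are uncertain.

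Several members lie next to another member among the protein-coding genes of RefSeq. There were 9 such neighbouring pairs, with 16 genes. In 5 pairs 1 gene was at or above the floor and the other was not, in 4 neither was, and in 0 both were. Only 11.8% of all members reached the floor, and the same shares over all neighbouring gene pairs were not counted. The 5 were Kcnj16 with Kcnj2, Kcnj10 with Kcnj9, Kcnj15 with Kcnj6, Kcnj1 with Kcnj5, and Kcnk5 with Kcnk16. The neighbours of Kcnj16 and Kcnk5 had differences below 0, with Kcnj2 at 3.66 and 3.84 and Kcnk16 at 3.44 and 3.50 in the Iah1-KO and Iah1-WT pools. Both differences were within 1 local robust SD. Kcnj9, next to Kcnj10, had 3.90 and 4.13, a difference of -0.24 beside -0.29 for Kcnj10. Kcnj6 differed by 0.27 beside 0.13 for Kcnj15, and Kcnj5 by 0.54 beside -0.16 for Kcnj1. All 5 neighbours below the floor were within 2 local robust SDs. Apart from Kcnj9 they lay below both array medians, so their differences rest on signals not shown to be above background.

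Other genes of ion transport that work with these channels were taken from a list of 30, of which 26 matched and 23 reached the floor. Of the 23, 12 were higher and 11 lower in the Iah1-KO pool, with a median difference of 0.03. A 1.5-fold difference was reached by 0 of them, against 0.43% of all genes at or above the floor. Bsnd, the accessory subunit of the basolateral chloride channels of the thick ascending limb and distal nephron, had 6.67 in the Iah1-KO pool and 7.02 in the Iah1-WT pool. Its difference of -0.35 was the only one of the 23 beyond 2 local robust SDs (-2.21), a size that 7.12% of all genes at or above the floor reached. Nr3c2, the mineralocorticoid receptor, had 6.26 and 6.01 in the Iah1-KO and Iah1-WT pools. Casr, the calcium-sensing receptor of the thick ascending limb, had 7.83 and 7.59, and Oxsr1, a kinase that activates chloride cotransporters, had 6.88 and 6.65. These 3 were each within 2 local robust SDs. Slc12a4, a potassium-chloride cotransporter below the floor, had 5.22 in the Iah1-KO pool and 5.78 in the Iah1-WT pool, a difference of -0.56 that was -2.82 times the local robust SD. The pump subunit Atp1b1 and its modulator Fxyd2, also on the list, differed by 0.03 and 0.05.

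**Figure D4:**
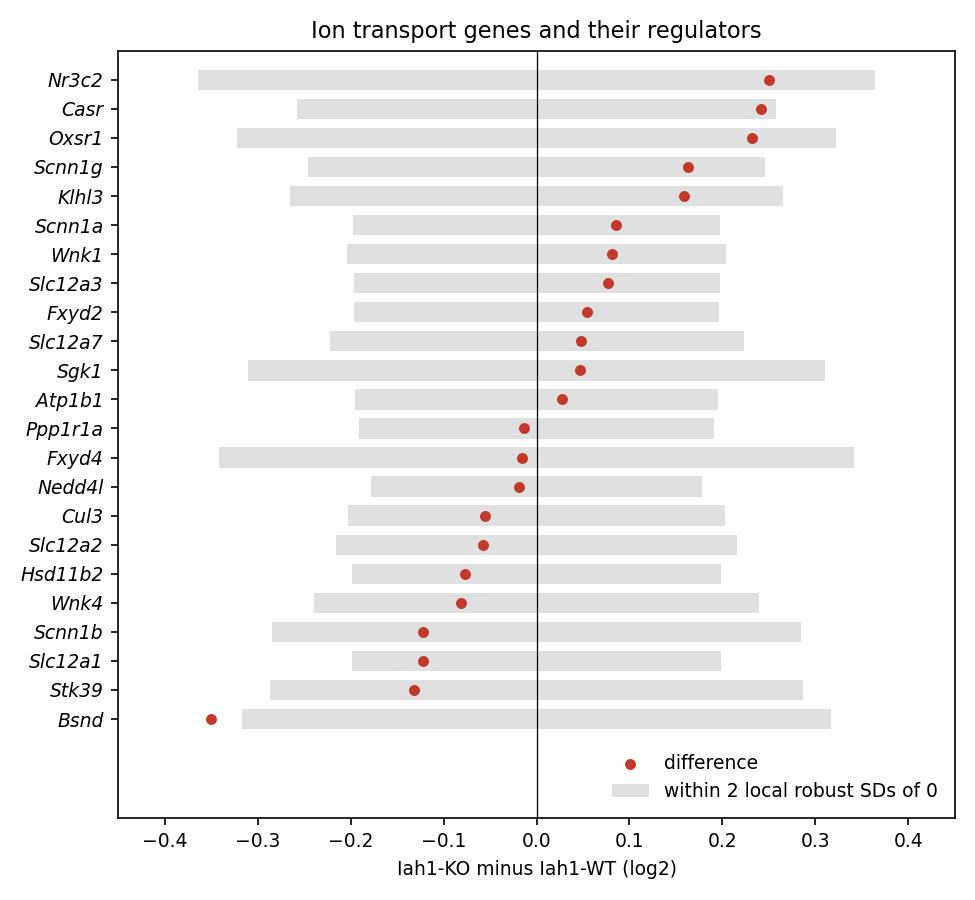
Difference between the Iah1-KO and Iah1-WT pools (log2) for the 23 ion transport genes at or above the expression floor, as red points, over grey bars that span 2 local robust SDs on either side of 0. Bsnd, at -0.35, lies outside its bar, and the other 22 lie inside theirs.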

How the data were processed

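Per the submitters' processing notes, the authors ran RMA (Affymetrix Expression Console 1.3.0) on 1 array per genotype and deposited the log2 values. RMA corrects background, gives all arrays the same distribution and summarises probes per probe set, so a shift of most transcripts would be hidden and the differences of weak signals shrink. Per the labels' protocols, targets were made from 100 ng of total RNA. Of 41345 probe sets, 23521 had exactly 1 symbol in GEO's platform annotation, 1814 several and 16010 none; only the first were used, the brightest per gene. All 85 members matched RefSeq by Entrez number. Channel genes without a probe set of their own symbol were not analysed here. Analysis used Python 3.11.15, numpy 2.4.6, pandas 2.3.3 and statsmodels 0.14.6, and the local robust SD (1.4826 times the median absolute deviation) was tested on simulated data. The array's genome build was not given in the sources used here. Detection calls and protein sequences were not used here.

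Members, lists and thresholds were chosen with earlier results of these data known. Genes named were the members at or above the floor, the strongest signal below it in each subfamily, members beyond 1.5-fold, and, of the transport and partner lists, up to 4 genes at or above the floor with the largest differences; others, such as the cell type markers named, Slc12a4, Kcnj5, Kcnj11, Kcnma1 and the ends of each subfamily's range, were chosen after their values were seen. Upstream sequences were taken from RefSeq, which held a window for 65 of the 85 members and for 8 of the 10 at or above the floor. Alternatives were a floor of 5, 7 or none, centring, a loess correction (span 0.3), the mean over probe sets, folds of 1.2 and 2, 3 local robust SDs, and 200 nearest genes. The number of arrays limits the precision.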

Additional observations from a re-analysis of the deposited data

How the results depend on the processing

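Kcnk5, Kcnj16 and Kcnj10 were the members beyond 2 local robust SDs at or above the floor as deposited, after centring and after the loess correction. The same 3 were found with the mean over probe sets, which is no check on them because each has 1 probe set. The 30 alternative values of the 10 single genes kept their sign and moved by less than 1 local robust SD. These settings could move them little, since centring shifted every difference by 0.008 and the loess fit ran from -0.039 to 0.026. Apart from Kcna4, the 10 genes have 1 probe set each, so the mean over probe sets could not alter their differences. The count of 10 at or above the floor was 16 with a floor of 5. The median difference of -0.03 turned to 0.028 with a floor of 5, and to 0.015 both with a floor of 7 and with the mean over probe sets, so it has no settled sign. Members above 0 numbered 9 with a floor of 5 and 34 with no floor, and those below 0 numbered 3 with a floor of 7 and 51 with no floor. With no floor, 2 of the 85 were lower by 1.5-fold and 7 by 2 local robust SDs. Over all 22180 genes these numbers were 316 and 778. At 1.2-fold, 2 of the 10 were higher and 2 lower, and the share of all genes at 1.2-fold was not counted. At 3 local robust SDs 0 were lower. The floor alters how many genes are counted. With the mean over probe sets the count was 9, because Kcna4, with its dim second probe set, fell below the floor. The other genes kept their differences, so the median changed through the loss of Kcna4 alone. Another floor changed no gene's difference, so those shifts came only from which genes were counted. With another fold or number of local robust SDs only the mark moved. No paired analysis was possible because each genotype has 1 array of pooled RNA. Signal over background could not be judged without detection calls.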

Other observations

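Probe sets that carry several symbols belong to no comparison above. For channel genes there were 4 of them. The probe set shared by Kcnj13, an inward rectifier, and Gigyf2 had 4.09 in the Iah1-KO pool and 3.71 in the Iah1-WT pool. The 2 shared by Kcnk3, an acid-sensitive leak channel, and Gm9899 differed in opposite directions, with 5.14 and 5.26 in one and 5.37 and 5.03 in the other for the Iah1-KO and Iah1-WT pools. The one shared by Kcnmb4 and Kcnmb4os1 had 3.96 and 4.23. None reached the expression floor.

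Markers of other cell types had these values. Of 6 intercalated cell markers all reached the floor, 2 higher and 4 lower, with a median difference of -0.09. Atp6v1g3, at -0.81 (-6.07 local robust SDs), was the only one beyond 2 local robust SDs. Slc4a1 differed by 0.18 and Foxi1 by -0.18. The 7 endothelial markers, each past the floor, had a median of 0.16, with 6 higher and Cdh5 at 0.24 (2.23 local robust SDs). Of 5 macrophage markers, 3 reached the floor, all of them higher, with a median of 0.41. Lyz2 differed by 0.63, Cx3cr1 by 0.41 and Csf1r by 0.11, and Lyz2 and Cx3cr1 were beyond 2 local robust SDs. Below the floor, Adgre1 had 4.37 in the Iah1-KO pool and 5.10 in the Iah1-WT pool, and Cd68 had 5.74 and 5.97. Podocyte markers had 2 past the floor (median 0.06). Adipocyte markers had 1, Fabp4 at -0.07, and T cell, urothelial and adrenal markers had 0.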
